A study of Mus musculus with 20 samples.

Results

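The genes described here are 9 genes of B cells and plasma cells: Cd79a, Cd79b, Ms4a1, Cd22, Blk, Pax5, Pou2af1, 2010001M09Rik (current symbol Mzb1) and Igj (current symbol Jchain). They were chosen by name for their known roles, but with earlier results of these data known. They are 9 of the 34291 gene rows counted in whole hearts of old mice. The tested hearts came from 10 C57BL/6 mice that ate a diet with 14 ppm rapamycin, a drug that blocks the kinase mTOR. The other hearts came from 10 age-matched C57BL/6 mice on a control diet. Feeding lasted 3 months from an age of 24 months, so all 20 animals were 27 months old. Single hearts are called by diet and label number, such as control 19. The question addressed is how late-life rapamycin alters transcript levels in the heart. Because whole hearts were ground, fewer cells of a type and less RNA per cell cannot be told apart.

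B cells carry a membrane immunoglobulin paired with the chains CD79A and CD79B, which pass its signal to kinases inside the cell. Coreceptors such as CD22 set the strength of that signal, and transcription factors such as PAX5 keep the B cell program switched on. On activation some B cells become plasma cells, which turn much of that program off and secrete immunoglobulin with the help of chaperones. In the heart B cells are a minor population, found inside vessels, among the muscle cells and in the surrounding fat, with few plasma cells in the healthy organ.

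Libraries held 8525162 to 12458309 counted reads in rapamycin hearts and 7039514 to 10594335 in control hearts. Levels are given as CPM, read counts scaled to a common library total, after TMM scaling (edgeR's correction for differences in library composition). Cardiomyocyte markers summed to 37876 to 50535 CPM in rapamycin hearts and to 12747 to 46513 CPM in control hearts, and the lowest sum was that of control 19. The 6 lung epithelial genes summed to 0.615 to 136 CPM in rapamycin hearts and 0.937 to 24656 CPM in controls, highest in control 19. The 7 neutrophil markers summed to 4.35 to 41.8 CPM in rapamycin hearts and 3.03 to 2402 CPM in controls, highest in the same heart. Every fold change of the 9 genes is therefore given with and without control 19.

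Cd79a and Cd79b encode the signalling chains of the B cell receptor. The median level of both was lower in rapamycin hearts, and both levels differed between hearts of the same diet by more than 10-fold. Cd79a stood at 0.831, 3.58 and 12.5 CPM (lowest, median and highest heart) with rapamycin, against 0.312, 7.45 and 59.8 CPM in controls. Cd79b stood at 1.13, 3.59 and 13.5 CPM with rapamycin, against 0.208, 10.1 and 56.4 CPM in controls. For each chain 4 control hearts lay above every rapamycin heart, and 8 of 10 rapamycin hearts lay below the control median. The groups overlapped, and the lowest heart of all was control 11, with 3 reads of Cd79a and 2 of Cd79b. The coefficient of variation (SD over mean) of Cd79a was 91.6% among rapamycin hearts and 119% among controls.

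The sequence before the Cd79a start site is shown because Cd79a is the gene to which the others are compared below. It covers chr7:24897247-24897496 on the plus strand of GRCm38.p6 (RefSeq), the 250 bases before the start, and capitals mark AGGAAGTG, an Ets-type motif that begins 55 bases before the start.
Cd79a: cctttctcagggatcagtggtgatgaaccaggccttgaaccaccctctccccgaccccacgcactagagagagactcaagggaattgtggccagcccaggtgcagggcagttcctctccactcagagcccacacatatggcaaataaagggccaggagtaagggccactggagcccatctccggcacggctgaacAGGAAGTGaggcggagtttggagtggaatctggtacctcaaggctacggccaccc
AGGAAGTG or its complement CACTTCCT occurs in 3.14% of 32851 promoter windows of this length. The octamer ATGCAAAT, bound by the Oct factors with which the Pou2af1 product works, was searched on both strands as ATGCAAAT and ATTTGCAT and occurs in 1.6% of the windows. RefSeq's table held 5 of the 9 genes (Cd79a, Cd22, Pax5, Pou2af1 and Igj), and none of these 5 windows holds the octamer.

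Ms4a1 encodes CD20, a B cell surface protein, and Cd22 encodes an inhibitory coreceptor that binds sialic acid. Ms4a1 stood at 0.776, 3.88 and 20.1 CPM (lowest, median and highest heart) with rapamycin, against 0, 7.36 and 73.1 CPM in controls. Cd22 stood at 0.333, 1.46 and 7.36 CPM with rapamycin, against 0.312, 6.93 and 37.2 CPM in controls. Again 4 control hearts exceeded every rapamycin heart for both genes, and both ranges overlapped. Rapamycin 8 was the highest rapamycin heart and control 16 the highest control heart for both. Control 11 had no read of Ms4a1, which allows up to 0.328 CPM by counting error alone (3 counts over the library total, without TMM).

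The window before Cd22 is shown for its match to another B cell motif. It covers chr7:30879029-30879278 on the minus strand of GRCm38.p6 (RefSeq), and capitals mark the palindrome bound by early B cell factor, whose middle pair of bases was left free in the search and which begins 49 bases before the start.
Cd22: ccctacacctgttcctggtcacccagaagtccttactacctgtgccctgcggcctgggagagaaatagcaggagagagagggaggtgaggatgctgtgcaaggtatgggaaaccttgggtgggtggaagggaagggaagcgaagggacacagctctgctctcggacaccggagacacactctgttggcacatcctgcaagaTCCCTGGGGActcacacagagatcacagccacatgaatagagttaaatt
This palindrome, which reads the same on both strands, occurs in 0.779% of the 32851 windows and does not overlap an Ets-type match here. A match of letters describes the sequence and is not a measured binding site.

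Among the regulators, Pax5 encodes the factor that commits cells to the B lineage and is switched off in plasma cells. Pax5 was the rarest of the 9, with 0, 0.360 and 2.36 CPM (lowest, median and highest heart) with rapamycin, against 0, 1.65 and 8.90 CPM in controls. No read was found in rapamycin 9, rapamycin 12 or control 11, which allows up to 0.307, 0.315 and 0.328 CPM there, again without TMM. Pou2af1 encodes a coactivator of Oct factors that is needed for germinal centres and is kept in plasma cells. It stood at 0.529, 2.31 and 8.75 CPM with rapamycin, against 0.625, 9.10 and 31.7 CPM in controls. All 10 rapamycin hearts lay below the control median of Pou2af1 and 5 controls lay above every rapamycin heart, yet control 11 (0.625 CPM) lay below 8 of the rapamycin hearts.

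Blk encodes a Src-family kinase that acts below the B cell receptor. It stood at 18.5, 22.0 and 28.4 CPM (lowest, median and highest heart) with rapamycin, against 8.98, 32.5 and 66.4 CPM in controls. All rapamycin hearts fell in a narrow range, with a coefficient of variation of 15.6%, against 53.0% among controls. On the low side, controls 19, 11 and 17 lay below every rapamycin heart, and the 7 other controls lay above every rapamycin heart. Per length, Blk had a median of 9.47 CPM per kb with rapamycin and 14.0 CPM per kb in controls, the highest median of the 9 genes in both diets. Cd79a had medians of 2.46 CPM per kb with rapamycin and 5.11 CPM per kb in controls. In control 11, where Cd79a and Cd79b had 5 reads in all, Blk had 134. The ratio of Blk to Cd79a reads ran from 1.8 to 34.1 in rapamycin hearts and from 0.616 to 44.7 in controls, so the 2 genes did not keep a fixed proportion.

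**Figure D1:**
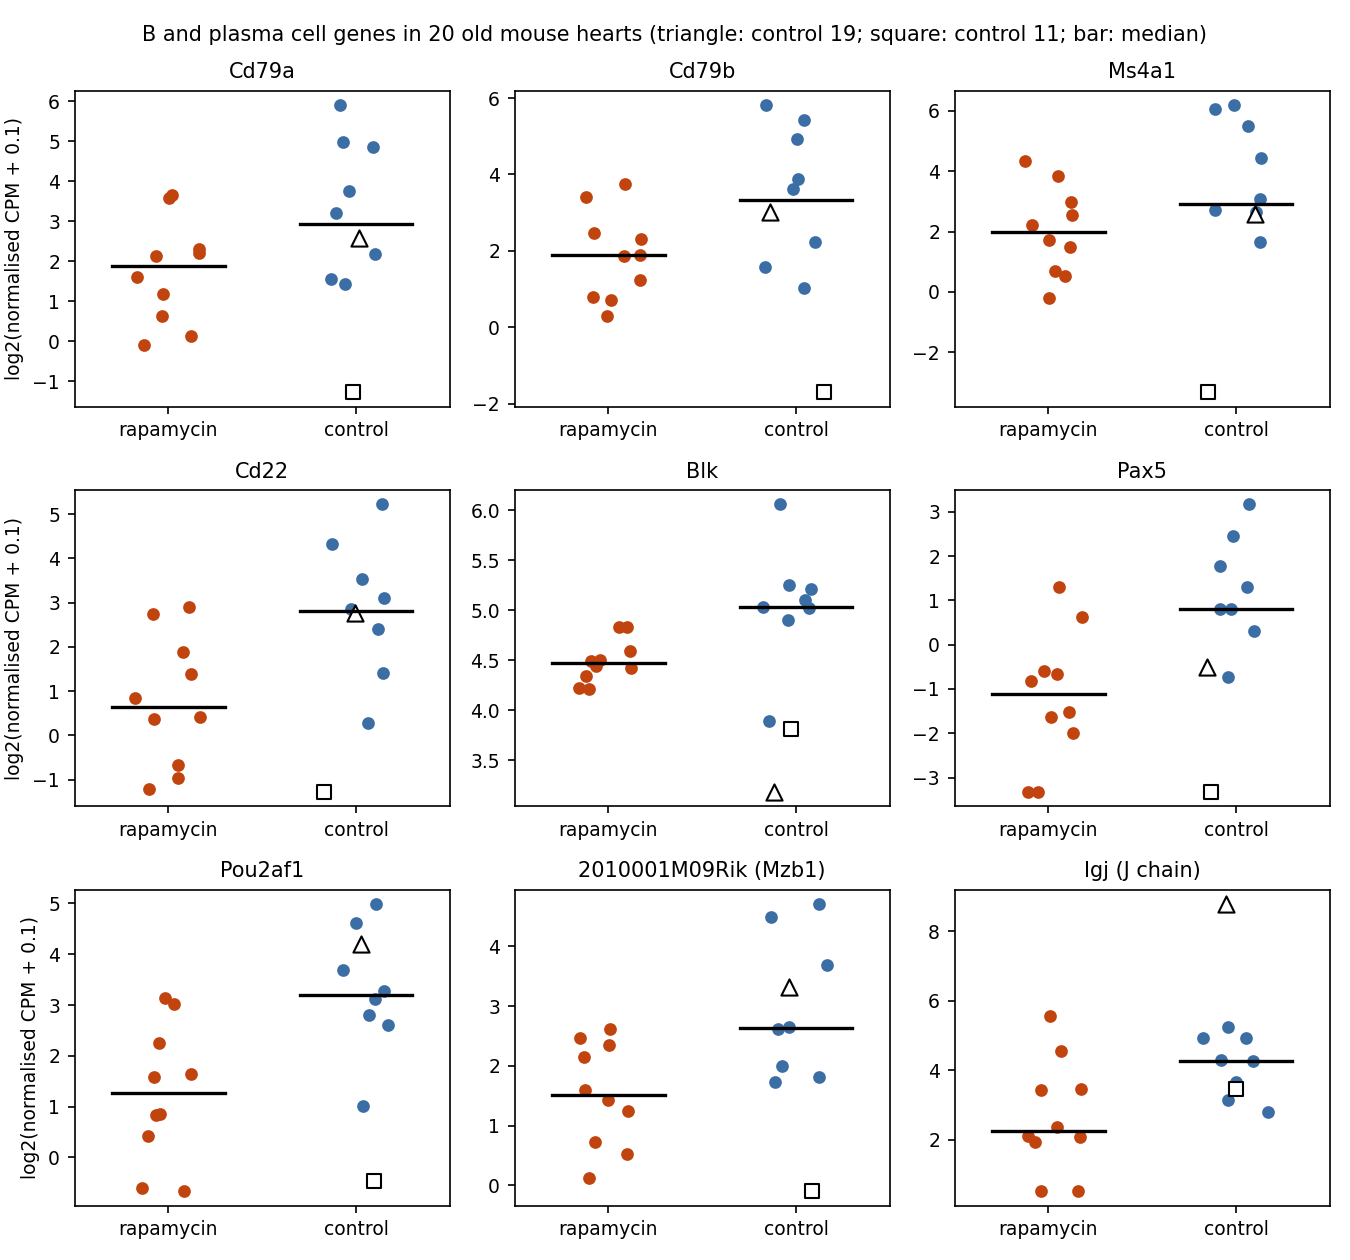
Level of each of the 9 genes in every heart, as log2 of TMM-normalised CPM plus 0.1 (vertical axis), for rapamycin hearts (orange, left) and control hearts (blue, right). Each point is 1 heart and the bar is the median; control 19 (triangle) is the highest heart for Igj at 443 CPM and control 11 (square) the lowest for Cd79a at 0.312 CPM.

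Of the secretory genes, 2010001M09Rik (Mzb1) encodes an endoplasmic reticulum protein of plasma cells and marginal zone B cells that helps immunoglobulin to assemble. It stood at 0.983, 2.75 and 6.02 CPM (lowest, median and highest heart) with rapamycin, against 0.833, 6.12 and 26.1 CPM in controls. All 10 rapamycin hearts were below the control median and 6 controls were above every rapamycin heart. Igj encodes the J chain, which links immunoglobulin A and M into polymers. Igj stood at 1.33, 4.65 and 47.1 CPM with rapamycin, against 6.87, 19.2 and 443 CPM in controls. Control 19 held 3653 of the 6412 Igj reads of the study, and the next highest control stood at 38.0 CPM. With control 19 left out, no control lay above rapamycin 14, the highest rapamycin heart. At the low end 6 rapamycin hearts lay below every control, which held for 2 rapamycin hearts with Pou2af1 and for none with the other 7 genes.

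The window before Igj is shown as an example without a match. It covers chr5:88527898-88528147 on the minus strand of GRCm38.p6 (RefSeq) and holds no octamer, early B cell factor palindrome or Ets-type match, so nothing is in capitals.
Igj: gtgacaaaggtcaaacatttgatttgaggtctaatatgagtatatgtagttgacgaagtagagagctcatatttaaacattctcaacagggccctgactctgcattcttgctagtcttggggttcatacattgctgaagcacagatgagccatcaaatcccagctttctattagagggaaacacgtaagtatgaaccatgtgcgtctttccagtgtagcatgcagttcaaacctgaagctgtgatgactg
The windows before Pax5 and Pou2af1 hold none of these motifs either, and the Ets-type and early B cell factor motifs were picked after the windows had been read. No match says only that those letters are not in the 250 bases searched.

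None of the 9 genes passed the test across all genes. Of the 13940 genes that passed the filter on low counts, 3.36% were called by edgeR's quasi-likelihood test (Benjamini-Hochberg adjusted p under 0.05), 2.68% as lower and 0.689% as higher in rapamycin hearts. Of the 9, 8 were tested and 0 were called, while 7 had an unadjusted p under 0.05, all lower with rapamycin. Over all genes 13.5% were lower with an unadjusted p under 0.05. Most of the 9 genes varied together from heart to heart (below), so the 7 are not separate results. Igj is among the 7, and its unadjusted p by edgeR was 0.124 without control 19. By other tools, DESeq2 called 3 of the 8 (Cd22, Pou2af1 and Mzb1) and 6.95% of all genes, or 4 with Igj and 7.26% of all genes when its replacement of outlying counts was off. Limma-voom called 0 of the 8, 4 of them at an unadjusted p under 0.05, and 1.96% of all genes. The members' median log2 fold change, rapamycin over control, was -1.88, and that of all genes tested was -0.01. These contrasts with all genes are descriptions, because the 9 genes were chosen with earlier results of these data known.

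The receptor chains had log2 fold changes of -1.78 ± 0.65 for Cd79a (SE, adjusted p = 0.120 by edgeR) and -1.87 ± 0.64 for Cd79b (0.0985). Among the surface proteins Ms4a1 had -1.95 ± 0.71 (adjusted p = 0.116 by edgeR) and Cd22 had -1.99 ± 0.64 (0.0800). Pou2af1 came nearest to the threshold at -1.89 ± 0.55 (adjusted p = 0.0589 by edgeR), followed by Mzb1 at -1.55 ± 0.47 (0.0689). Blk had the smallest value, -0.45 ± 0.24 (adjusted p = 0.281 by edgeR). By limma-voom the values were nearer to 0 by more than 1.5 times for Cd79b (-1.15), Ms4a1 (-1.12) and Blk (-0.27). Pax5 did not pass the filter; with no filter it had -2.07 ± 0.69 (adjusted p = 0.115 by edgeR over 23781 genes). Igj had -2.48 ± 0.80 with all hearts (adjusted p = 0.0820 by edgeR).

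Leaving out control 19 moved Igj more than any other of the genes. Without it Igj had a log2 fold change of -0.82 ± 0.51 (unadjusted p = 0.124, adjusted p = 0.406 by edgeR). The other tested genes moved by little, to -1.87 for Cd79a, -1.94 for Cd79b, -2.06 for Ms4a1, -2.04 for Cd22, -0.55 for Blk, -1.81 for Pou2af1 and -1.54 for Mzb1. Pax5 then passed the filter and had -2.20 ± 0.65 (adjusted p = 0.0609 by edgeR). All 9 genes were then tested and none was called. All but Igj, 8 genes, had an unadjusted p under 0.05 and a value below 0, as did 10.5% of all genes. Blk was newly among them, with an unadjusted p by edgeR of 0.0762 with all hearts and 0.0125 without control 19. Of 13977 genes 3.38% were called, 2.33% as lower and 1.05% as higher in rapamycin hearts.

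**Figure D2:**
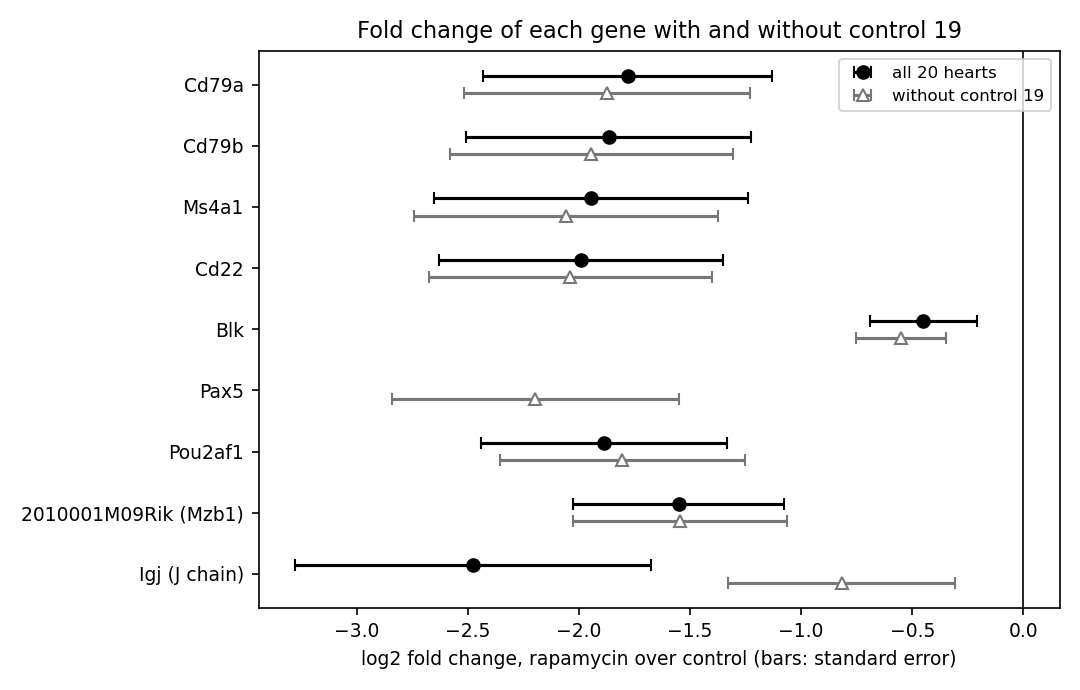
Log2 fold change of each gene, rapamycin over control (horizontal axis), with all 20 hearts (black circles) and without control 19 (grey triangles); bars are standard errors from edgeR. All values lie left of 0, Igj moves to -0.82 without control 19, and Pax5 was tested only without it.

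Other single hearts moved calls too. Pou2af1 passed when control 11 (adjusted p = 0.0393 by edgeR), control 17 (0.0344), rapamycin 3 (0.0472) or rapamycin 14 (0.0499) was left out. Mzb1 passed without control 11 (adjusted p = 0.0446 by edgeR) or control 17 (0.0450), and Cd22 passed without control 17 (0.0476). Over all genes the share called was 2.07% without control 11, 5.31% without control 17, 3.02% without rapamycin 3 and 2.15% without rapamycin 14. Rapamycin 14 and rapamycin 3 were the highest rapamycin hearts for Pou2af1 (8.75 and 8.02 CPM), and control 11 and control 17 the lowest controls (0.625 and 1.91 CPM). Other hearts moved fold changes toward 0. Leaving out control 16 gave the log2 fold change nearest to 0 for Cd79a (-1.25), Cd79b (-1.45), Ms4a1 (-1.56), Cd22 (-1.47) and Mzb1 (-1.24). Control 7 did so for Pou2af1 (-1.59) and Blk (-0.25). The spread behind the tests of the 9 genes was large: edgeR's biological coefficient of variation was 0.959 for Cd79a, 1.09 for Ms4a1 and 1.10 for Igj, against 0.371 for Blk and a common value of 0.202 over all genes.

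The same few hearts were high for most of the genes. Control 16 was the highest of all 20 hearts for 5 genes and control 7 for 3, while control 19 was highest for Igj. Control 10 was among the top 3 hearts for 6 of the 9. Control 11 was the lowest heart for 5 genes. Summed over the 9 genes without Blk and Igj, the level ran from 5.67 to 62.0 CPM (median 18.9) in rapamycin hearts and from 2.29 to 282 CPM (median 58.6) in control hearts. The 3 highest sums were 282 CPM in control 16, 216 CPM in control 7 and 153 CPM in control 10. In rapamycin hearts the highest levels of Cd79a were 12.5 CPM in rapamycin 8 and 11.9 CPM in rapamycin 3.

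**Figure D3:**
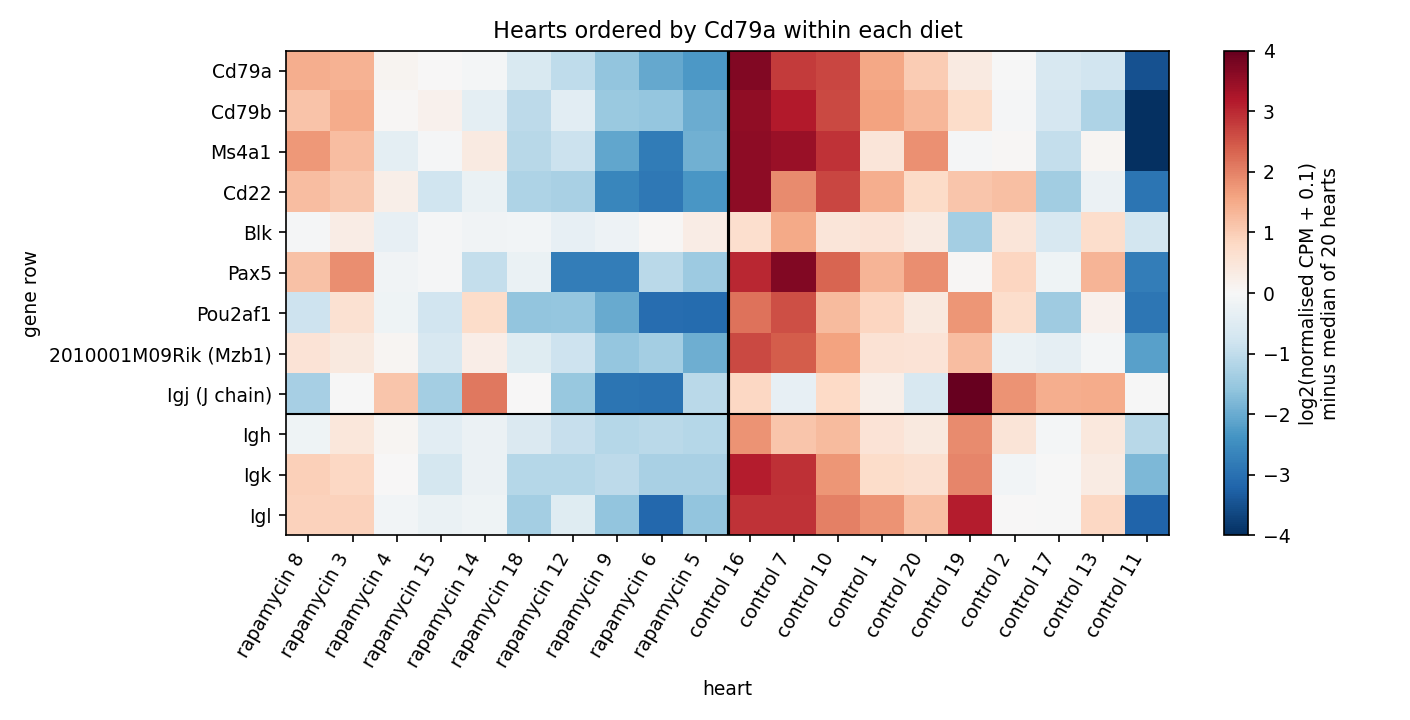
Level of the 9 genes and 3 immunoglobulin rows (rows) in each heart (columns; rapamycin left, control right, ordered by Cd79a within a diet), as log2 of normalised CPM plus 0.1 minus the median of the 20 hearts. Control 16, control 7 and control 10 are high from Cd79a to Cd22, control 11 is low, and Igj is highest in control 19 at 443 CPM.

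With the mean of each diet subtracted on the log2 scale, most of the genes varied together from heart to heart. Over 20 hearts Cd79b followed Cd79a with Pearson r = 0.98 and Spearman rho = 0.98 (permutation p = 1e-05 for each, the smallest that 100000 permutations can give, adjusted p = 1.67e-05 and 2e-05 over 10 relations). Values of r to Cd79a were 0.96 for Ms4a1, 0.95 for Cd22, 0.95 for Mzb1 and 0.85 for Pou2af1, with rho of 0.93, 0.92, 0.93 and 0.83. Without the 2 hearts farthest from the median of Cd79a, r was 0.97 for Cd79b, 0.93 for Ms4a1, 0.92 for Cd22, 0.90 for Mzb1 and 0.78 for Pou2af1.

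Blk and Igj did not follow this pattern closely. Blk had r = 0.49 and rho = 0.39 to Cd79a (permutation adjusted p = 0.0312 and 0.103), and r was 0.34 without the 2 hearts farthest from the median of Cd79a and 0.59 without control 19, where rho was 0.35. Within diets r was 0.02 among rapamycin hearts and 0.60 among controls. Igj had r = 0.08 and rho = 0.15 (permutation adjusted p = 0.721 and 0.538), with r = 0.47 among rapamycin hearts and -0.13 among controls. Reads of Igj per read of Cd79a ran from 0.339 to 11.1 in rapamycin hearts (median 1.54) and from 0.277 in control 7 to 76.1 in control 19 (median 4.74). Cd79b per Cd79a stayed within 0.774 to 1.65 in rapamycin hearts and 0.667 to 1.38 in controls.

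**Figure D4:**
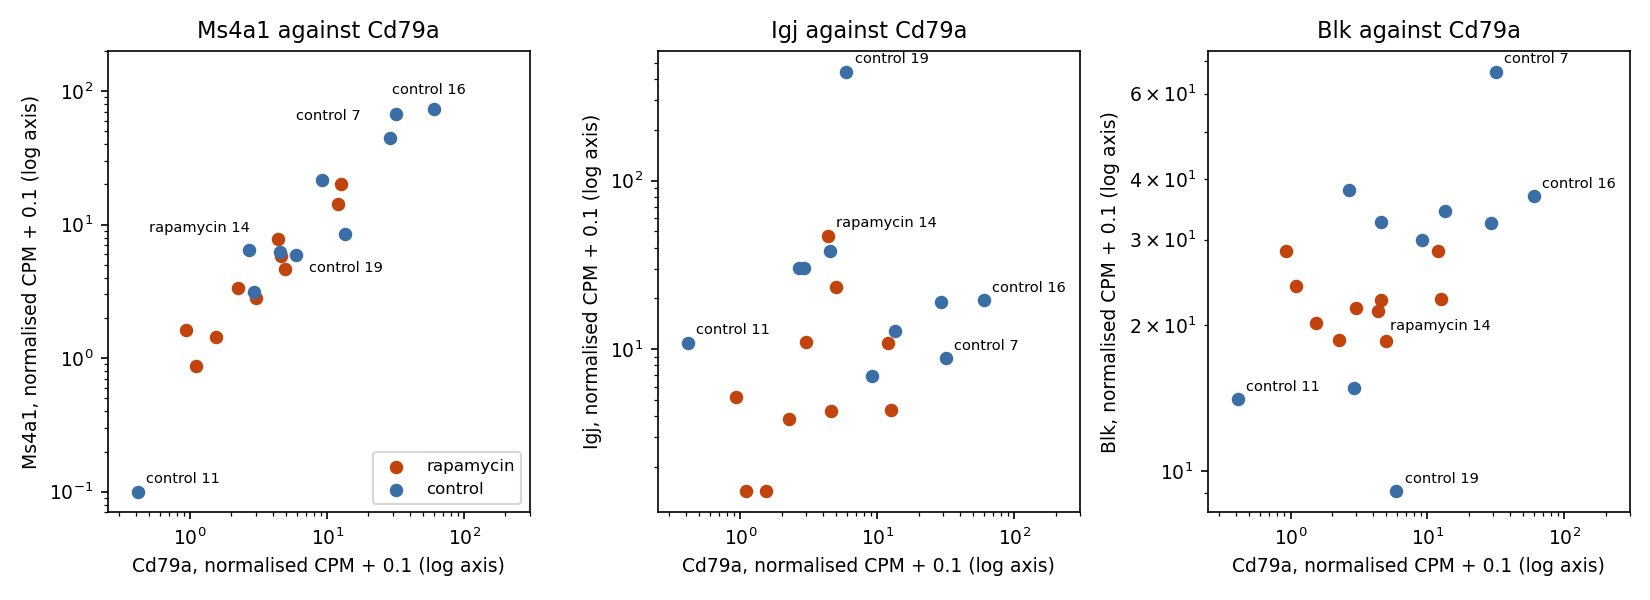
Level of Ms4a1, Igj and Blk (vertical axes) against Cd79a (horizontal axis) in 10 rapamycin hearts (orange) and 10 control hearts (blue), in normalised CPM plus 0.1 on log axes. Ms4a1 is higher where Cd79a is higher (r = 0.96 with diet means subtracted), while Igj (r = 0.08) and Blk (r = 0.49) scatter.

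By Spearman rho over the 20 hearts, with diet means subtracted and the 9 genes set aside, the genes most like Cd79a included Ly6d (0.98), the transcription factor gene Spib (0.94), the chemokine receptor gene Cxcr5 (0.92) and Fcrla (0.92). The genes most like Igj were Pomp (0.76), Snrnp25 (0.75), Psma2 (0.74), Dolpp1 (0.73) and Atp6v1e1 (0.72). Without control 19 these values were 0.70, 0.73, 0.77, 0.75 and 0.61. Those most like Blk, named after their values were seen, were Sybu (0.86), Dusp19 (0.82), Plekha6 (0.81), A730056A06Rik (0.81) and Myh7b (0.80). Without control 19 the Blk values were 0.81, 0.88, 0.60, 0.69 and 0.63. All these names head a ranking of every gene that passed the filter, and how high rho runs there by chance was not tested.

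Immunoglobulin rows passed the test where the 9 genes did not. The count table holds 265 such rows, of which 4 had a read and 3 were tested, and all 3 fell in rapamycin hearts. The share of all genes tested that fell was 2.68%. Igh stood at 16.6, 26.1 and 50.2 CPM (lowest, median and highest heart) with rapamycin, against 16.9, 53.3 and 136 CPM in controls (log2 fold change -1.32 ± 0.30, adjusted p = 0.0229 by edgeR). Igl stood at 0.554, 4.35 and 10.9 CPM with rapamycin, against 0.521, 16.5 and 50.7 CPM in controls (-2.19 ± 0.55, 0.0329). Igk stood at 8.09, 10.9 and 38.8 CPM with rapamycin, against 5.73, 32.4 and 177 CPM in controls (-1.86 ± 0.50, 0.0448). Ranges overlapped for all 3, and control 11 was their lowest control heart. Their r to Cd79a was 0.84, 0.91 and 0.87 for Igh, Igk and Igl, with rho of 0.82, 0.89 and 0.85.

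Igh kept its call in each of the 20 fits that left out 1 heart. Igl lost it without control 7 or rapamycin 4, 6, 9, 12, 14, 15 or 18, with an adjusted p of up to 0.0661 by edgeR. Igk lost it without control 7, 16 or 19 or the same 7 rapamycin hearts, with an adjusted p of up to 0.0832 by edgeR. Calls over all genes, 469 with all hearts, also dropped without any of those 7 rapamycin hearts. They were 166, 192, 266, 179, 302, 231 and 165 without rapamycin 4, 6, 9, 12, 14, 15 and 18. Without controls 7, 16 and 19 they were 330, 536 and 472. Without the 4 hearts that held lung transcripts (controls 1, 19 and 20 and rapamycin 15) none of the 3 passed, with adjusted p of 0.0571, 0.0830 and 0.0949 by edgeR for Igh, Igk and Igl. By limma-voom Igk and Igl did not pass (adjusted p = 0.136 and 0.207).

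A few genes of a further B cell list passed the test, in which 2.68% of all genes fell. Of 24 further surface proteins and transcription factors of B cells 20 were tested. By edgeR 18 were lower with an unadjusted p under 0.05, as were 13.5% of all genes. By adjusted p 4 fell and none rose, with a median log2 fold change of -1.30 and 19 values below 0. Those that fell were the tetraspanin gene Cd37 (-1.41 ± 0.29, adjusted p = 0.0159 by edgeR), the lymphoid transcription factor gene Ikzf3 (-1.86 ± 0.42, 0.0222), the Toll-like receptor relative Cd180 (-1.06 ± 0.26, 0.0282) and Pou2f2, which encodes an Oct factor (-0.98 ± 0.24, 0.0300). Cd37 stood at 4.88, 6.50 and 16.96 CPM with rapamycin, against 11.2, 17.8 and 46.7 CPM in controls. Ikzf3 stood at 0.665, 1.68 and 7.71 CPM with rapamycin, against 3.82, 7.46 and 29.6 CPM in controls. For these 2 genes 8 and 7 rapamycin hearts lay below every control. The 1 value above 0 was that of Ebf1, the early B cell factor gene that is also active in fat and stromal cells (0.13, adjusted p = 0.515 by edgeR).

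Cd37 and Ikzf3 kept their calls in all 20 fits without 1 heart. Cd180 lost its call without rapamycin 4, 6, 12, 15 or 18, and Pou2f2 without those or control 7, with adjusted p of up to 0.0601 and 0.0615 by edgeR. In each of these fits fewer genes were called over all genes as well, as given above for Igl and Igk. Cd180 and Pou2f2 also missed the threshold without the 4 hearts with lung transcripts (adjusted p = 0.0572 and 0.0598 by edgeR), and Pou2f2 by limma-voom (0.0533).

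Kinases, adaptors and phosphatases below the receptor were the next group. Among all genes 2.68% fell, or 2.33% without control 19. Of 17 tested in this group 8 fell and none rose, with a median log2 fold change of -0.64, and 6 fell without control 19. The 4 with the smallest p were the phosphatase gene Inpp5d (-0.64 ± 0.13, adjusted p = 0.0167 by edgeR), the kinase gene Prkcb (-0.98 ± 0.21, 0.0185), the phosphatase gene Ptpn6 (-0.96 ± 0.22, 0.0254) and the exchange factor gene Vav1 (-0.84 ± 0.21, 0.0305). Many of these genes are active in macrophages and T cells as well, and 6 of 9 macrophage markers also fell (median -0.56), with sums of 262 to 488 CPM in rapamycin hearts and 349 to 807 CPM in controls. Inpp5d stood at 12.3, 14.7 and 19.4 CPM with rapamycin, against 17.6, 22.2 and 41.5 CPM in controls, so 8 rapamycin hearts lay below every control. Prkcb stood at 6.87, 9.16 and 18.6 CPM with rapamycin, against 10.9, 19.7 and 41.4 CPM in controls.

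Inpp5d and Prkcb kept their calls in all fits without 1 heart. Ptpn6 lost its call without rapamycin 4, 12 or 18, and Vav1 without control 2 or 11 or rapamycin 4, 6, 9, 12, 14, 15 or 18, with adjusted p of up to 0.0554 and 0.0612 by edgeR. In each of these fits fewer genes were called over all genes as well, 280 without control 2 and 290 without control 11. Without the 4 hearts with lung transcripts Ptpn6 and Vav1 had adjusted p of 0.0849 and 0.0763 by edgeR.

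Plasma cell regulators and secretory genes outside the 9 were mostly not called, while 2.68% of all genes fell. Of 15 listed 13 were tested, and all had values below 0 with a median of -0.37 (-0.22 without control 19). By edgeR 11 of the 13 had an unadjusted p under 0.05, while 13.5% of all genes did so and were lower. Without control 19 these were 10 of the 13 and 10.5%. By adjusted p 1 gene fell. This was Cd38, a surface enzyme gene that is also active in other immune and vascular cells (-0.45 ± 0.11, adjusted p = 0.0282 by edgeR). Cd38 stood at 22.4, 29.6 and 37.5 CPM with rapamycin, against 27.3, 38.9 and 57.9 CPM in controls. It lost its call without rapamycin 4, 12, 15 or 18 (adjusted p of up to 0.0601 by edgeR) and without the 4 hearts with lung transcripts (0.0763). In each of these fits fewer genes were called over all genes as well. The plasma cell factor genes Irf4 and Xbp1 had -0.97 and -0.25 (adjusted p = 0.0563 and 0.112 by edgeR), and Sdc1, the gene of the plasma cell surface proteoglycan CD138, had -0.94, or -0.19 without control 19.

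Among 11 genes of B cell attraction and survival 6 were tested and 2 fell, both by a larger log2 fold change than any tested gene of the plasma cell list. The share of all genes tested that fell was 2.68%. Cxcl13, the chemokine that draws B cells into follicles, stood at 2.01, 3.75 and 15.6 CPM with rapamycin, against 10.1, 30.2 and 81.5 CPM in controls (log2 fold change -2.16 ± 0.39, adjusted p = 0.0104 by edgeR). For Cxcl13, 9 of 10 controls lay above every rapamycin heart. Its highest level was in control 11, the heart in which 5 of the 9 genes were lowest. Ltb, which encodes lymphotoxin beta of lymphocytes, stood at 0.860, 1.38 and 2.90 CPM with rapamycin, against 2.21, 4.06 and 7.40 CPM in controls (-1.52 ± 0.26, 0.00844). Both kept their calls in all 20 fits without 1 heart. For both, the lowest control was control 10, which was among the top 3 hearts for 6 of the 9 genes, and Ltb was highest in control 19. The survival factor gene Tnfsf13b (BAFF) had -0.24 (adjusted p = 0.467 by edgeR), and Ccl21a had no read in any heart.

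**Figure D5:**
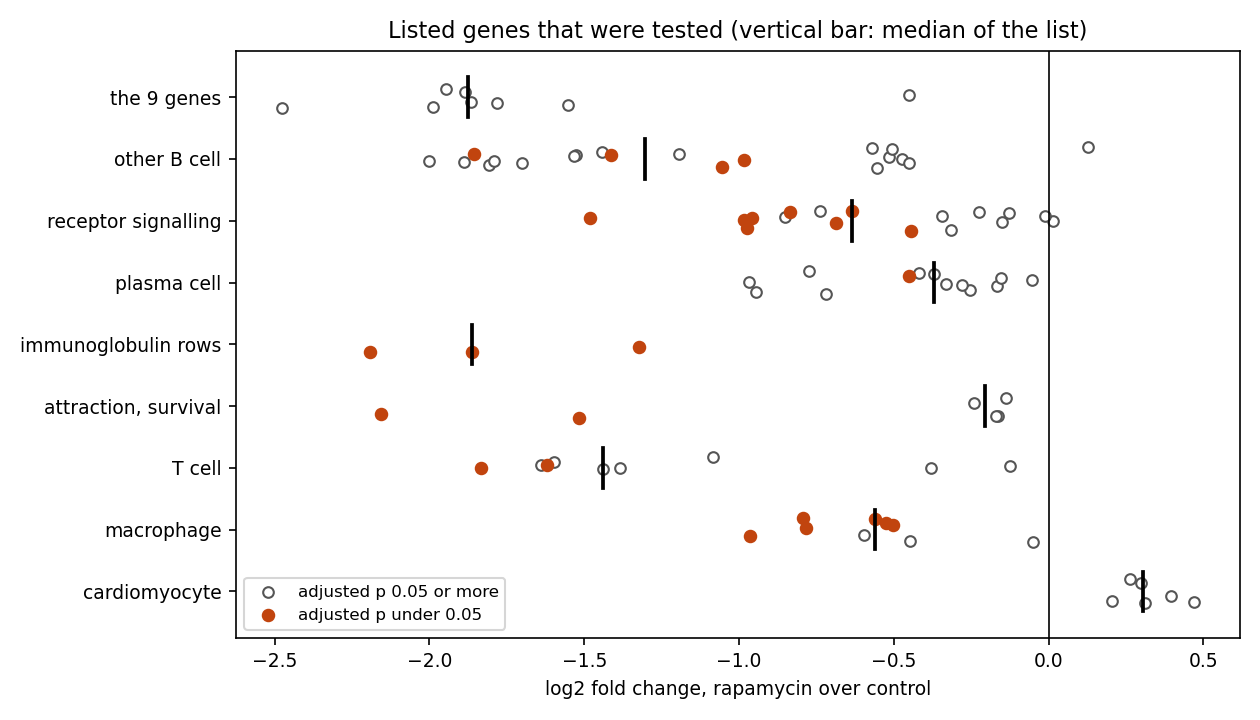
Log2 fold change, rapamycin over control (horizontal axis), of each tested gene in the lists named at left; filled points have an edgeR adjusted p under 0.05 and vertical bars are list medians. None of the 9 genes is filled (median -1.88), all 3 immunoglobulin rows are (median -1.86), and the 6 cardiomyocyte markers lie right of 0.

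Markers of other cell types moved beside these genes, and their part in the results was not tested. With all hearts 2.68% of all genes fell. The 12 T cell markers summed to 13.1 to 51.8 CPM in rapamycin hearts and 22.2 to 125 CPM in control hearts, and 2 of 9 tested fell, with all 9 values below 0 and a median log2 fold change of -1.44. The highest T cell sum was in control 11, where B cell genes were lowest. The 4 markers of immature thymocytes summed to 0 to 23.0 CPM in rapamycin hearts, highest in rapamycin 8, and to 0 to 4.82 CPM in controls, highest in control 17. Without those 2 hearts Cd22 (adjusted p = 0.0379 by edgeR) and Mzb1 (0.0469) passed, and 3.77% of all genes were called. Among 4 markers of plasmacytoid dendritic cells, which also use Blk and Cd79b, Ly6d averaged 1.69 CPM in rapamycin hearts and 6.49 CPM in controls, but Ly6d was also the gene most like Cd79a. The others had means under 1 CPM in both diets: Siglech averaged 0.228 CPM with rapamycin and 0.347 CPM in controls, Ccr9 0.955 CPM with rapamycin and 0.778 CPM in controls, and Klk1 0.105 CPM with rapamycin and 0.127 CPM in controls. The 6 mesothelial markers summed to 36.0 to 111 CPM in rapamycin hearts and 60.3 to 310 CPM in controls, highest in control 19. Of these 2 fell, with a median log2 fold change of -0.85, and none was called without control 19 (edgeR; 6 with an unadjusted p under 0.05, median -0.76). Adipocyte markers, which would mark fat around the heart, summed to 14.7 to 326 CPM in rapamycin hearts and 15.7 to 248 CPM in controls, and none of 5 was called (edgeR; 0 with an unadjusted p under 0.05). The 6 cardiomyocyte markers had a median log2 fold change of 0.30, and none of them was called with all hearts (edgeR, 4 with an unadjusted p under 0.05, all higher). Without control 19 their median was 0.22 and 1 was called as higher, as were 1.05% of all genes.

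The authors' deposited table of 700 genes, out of 34291 gene rows, is labelled DE (differentially expressed) genes. It lists 3 of the 9 genes, Pou2af1, Mzb1 and Igj, none of which was called in the main fit here. With library totals in place of TMM these 3 passed (adjusted p = 0.0307, 0.0334 and 0.0422 by edgeR), as did Cd22 (0.0415), among 1332 genes called. The means below are over library totals without TMM, unlike the other levels given here. Igh, Igk and Igl are listed too. Mean CPM in the authors' deposited table was 3.13 with rapamycin and 12.9 in controls for Pou2af1. For Mzb1 the authors' deposited table gives means of 3.06 with rapamycin and 10.0 in controls. For Igj the means in the authors' deposited table are 10.5 with rapamycin and 69.6 in controls, and control 19 is among those controls.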

How the data were processed

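Poly(A) RNA of 20 whole frozen hearts was sequenced in 50-base pairs, per the design text and the labels. The authors deposited raw counts for 34291 gene rows, and reads had been placed at unique sites of MGSCv37 with few mismatches, per the design text. No label names the aligner, counter, strand setting, sex or batch, so reads of genes that overlap or lie antisense may be shared; Ms4a1, Blk and Pax5 overlap other annotated genes. The authors also deposited CPM values for 700 genes, of which 696 were matched by name and equal counts over library totals within 0.001 CPM. Columns were matched to samples by name.

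The 9 genes and the gene lists were chosen with earlier results of these data known. Counts were fitted with edgeR 4.0.16 (filterByExpr, TMM, quasi-likelihood, R 4.3.3) as rapamycin over control with no covariate, and p-values were adjusted over all genes. DESeq2 1.42.0 and limma 3.58.1 (voom) were alternatives, with other scalings and filters, sets of hearts left out and each heart left out in turn. In each list the genes named are those called, at most 4 with the smallest p; Ebf1, Irf4, Xbp1, Sdc1, Tnfsf13b and Ccl21a were added after their values were seen. Of the genes that these rules name, 1 is not reported here. Among 90 pairs of hearts on the same diet, the chi-square of counts was at least 5.40 per degree of freedom, so none differed by sampling noise alone. In simulated counts for 13868 genes, 94% of genes changed by log2 0.8 and 32.7% of those changed by log2 0.4 were recovered, and 6.47% of calls were false; each gene was drawn with its own estimated spread, which for most genes is smaller than for the 9. Levels per length use GENCODE M21 exons. Upper limits for a count of 0 cover counting error only and are over library totals without TMM. Promoter windows are of GRCm38.p6, another build than that of the counts; the Ets-type and early B cell factor motifs were picked after the windows had been read.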

Additional observations from a re-analysis of the deposited data

Results flagged for a closer look

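The levels of the 9 genes and of 3 immunoglobulin rows were searched for a heart far from the others of its diet, in 24 groups of 10 hearts; chance marks about 1 group in 20 where values are normally distributed, and its rate for levels as skewed as these was not established. Igj stood at 47.1 CPM in rapamycin 14, against 23.4 CPM in the next highest rapamycin heart. In controls Igj stood at 443 CPM in control 19, against 38.0 CPM in the next, and that heart also held the highest lung and neutrophil sums. Cd79a stood at 59.8 CPM in control 16, against 31.4 CPM in the next control. Cd22 stood at 37.2 CPM in the same heart, against 20.01 CPM in the next. Blk stood at 66.4 CPM in control 7, against 37.9 CPM in the next control. The part of tissue other than heart muscle in these values was not tested.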

How the results depend on the processing

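No paired analysis was possible because each number from 1 to 20 occurs in 1 diet only. For the 8 tested genes, 240 values from 30 alternatives kept their direction; 220 kept their side of the threshold and 20 newly passed it. The count of the 9 genes called was 0, but 4 with library totals in place of TMM, 3 and 4 by DESeq2 with and without outlier replacement, 2 without the 2 hearts with thymus transcripts, and 0 to 3 when 1 heart was left out. Over all genes 469 were called, against 1332 with library totals, 969 and 1012 by DESeq2, 273 by limma-voom, 280 without the 4 hearts with lung transcripts, and 165 to 791 with 1 heart left out. Of 59 listed genes tested outside the 9, 18 were called, against 36 with library totals, 28 by DESeq2 with or without replacement, 6 without the hearts with lung transcripts, and 7 to 22 with 1 heart left out (7 without rapamycin 4, 12 or 18, 8 without 15, 9 without 6, 11 without 9 or 14). With library totals the median of all genes was -0.13 and 96.4% of calls were lower in rapamycin hearts, against 79.5%; the cause of the other shifts was not tested. The log2 fold change with 1 heart left out ran from -2.08 to -1.25 for Cd79a, -2.20 to -1.45 for Cd79b, -2.36 to -1.56 for Ms4a1, -2.33 to -1.47 for Cd22, -0.55 to -0.25 for Blk (without control 7), -2.16 to -1.59 for Pou2af1, -1.69 to -1.24 for Mzb1 and -3.07 (without rapamycin 14) to -0.82 (without control 19) for Igj. By limma-voom it was -1.24 for Cd79a, -1.15 for Cd79b, -1.12 for Ms4a1, -1.76 for Cd22, -0.27 for Blk, -1.82 for Pou2af1, -1.22 for Mzb1 and -1.89 for Igj. Depth limits Pax5, with 309 reads in all.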

Other observations

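Markers of lymph node vessels summed to 0.554 to 4.32 CPM in rapamycin hearts and 1.67 to 38.7 CPM in controls, highest in control 13, where Cd79a stood at 2.57 CPM. The ratio of Igk to Igl reads ran from 2.27 to 14.6 in rapamycin hearts, and the lowest control was control 19 at 1.55. The 4 erythroid markers summed to 88.6 to 777 CPM in rapamycin hearts and 52.6 to 2965 CPM in controls, and control 17 was highest.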
